A study of Mus musculus with 28 samples.

Results

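Newly made RNA of untreated mouse macrophages carrying a retroviral short hairpin against Pnuts was set against that of untreated macrophages carrying a scrambled hairpin. The comparison rests on 2 of the 28 libraries of the series, 1 library on each side, chosen by their labels and not by any measured value. The library labelled Pnuts sh came from cells with the Pnuts hairpin and no lipopolysaccharide (LPS), and its control came from cells with the scrambled hairpin and no LPS. A second pair from the same set, Pnuts sh and scrambled cells after 45 min of LPS at 10 ng/ml, was used as the only repeat of the hairpin. All 4 were macrophages grown from FVB/Hsd bone marrow, transduced, selected with puromycin and harvested on day 7 of differentiation. The cells took up 4-thiouridine (4sU), which marks newly made RNA, in the last 45 min, and the libraries kept strand. The labels do not say how many hairpins or mice stand behind a library. Untreated cells with hairpins against Set1a and Set1b (with their own scrambled control) or against Wdr82 (sh1137, with the empty vector LMP as control) serve for comparison where stated.

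PNUTS, encoded by Ppp1r10, is a nuclear scaffold that holds the catalytic subunit of protein phosphatase 1 together with WDR82 and TOX4 in the PTW/PP1 complex. The complex removes phosphate from the transcription machinery, RNA polymerase II included, and is known for its part in slowing and ending transcription. WDR82 also belongs to the SET1 complexes, which methylate histones. In macrophages the study asked how hairpins against these factors alter newly made RNA before and after LPS.

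Levels are FPKM (fragments counted for each kilobase of a transcript, scaled by library size), and each comes with a lower and an upper bound from the deposited table. In the 4 libraries of the Pnuts set between 12328 and 12646 genes reached 1 FPKM. The files hold no read counts, so absolute depth is unknown. The commonest ratio among low values put the untreated libraries at the same depth and the 45 min LPS libraries at a 1.56-fold difference, the library labelled Pnuts sh being the shallower. Differences are given as log2((FPKM + 1)/(FPKM + 1)), Pnuts sh over scrambled, which understates the change of low genes. With 1 library on each side, no value of the untreated pair has a replicate error or a p. Markers of macrophages were present in both untreated libraries, with Csf1r at 214 FPKM with Pnuts sh and 336 FPKM with scrambled.

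The targeted transcript went against the label. Ppp1r10 stood at 144 FPKM (bounds 57.4 to 231) in the library labelled Pnuts sh, against 89.5 FPKM (bounds 41.2 to 138) in the scrambled library, a log2 ratio of 0.68. After 45 min of LPS it stood at 332 FPKM with Pnuts sh and 203 FPKM with scrambled, a log2 ratio of 0.70. It was thus higher with the hairpin in both pairs, with overlapping bounds in the untreated one. The 4sU libraries measure newly made RNA, so they do not show how much mature Ppp1r10 mRNA or PNUTS protein remained, and every direction below is that of the library labelled Pnuts sh. In the other sets Ppp1r10 had a log2 ratio of 1.29 with the Wdr82 hairpin (stranded set) and -0.12 with the Set1a and Set1b hairpins.

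The partners of PNUTS differed little. Wdr82 was at 25.8 FPKM with Pnuts sh and 31.0 FPKM with scrambled (log2 ratio -0.26), and Tox4 at 30.3 FPKM with Pnuts sh and 25 FPKM with scrambled (0.27). Of the genes for the catalytic subunits, Ppp1ca was at 94.8 FPKM with Pnuts sh and 112 FPKM with scrambled, Ppp1cb at 28.9 FPKM with Pnuts sh and 23.9 FPKM with scrambled, and Ppp1cc at 38.1 FPKM with Pnuts sh and 37.6 FPKM with scrambled. None of the 6 members of the complex was 2-fold different, beside 5.89% of all genes tested, and their median log2 ratio was 0.14. Of the SET1 complex genes, 0 of 9 were 2-fold different (median -0.20), beside the same 5.89%. Lists this short can easily hold no call at that share, so a count of 0 says little about them.

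Over the table, 12820 genes were tested, meaning that they reached 1 FPKM in either untreated library. Of these, 433 genes (3.38%) were at least 2-fold higher with Pnuts sh and 322 genes (2.51%) at least 2-fold lower. The deposited bounds of the 2 libraries did not overlap for 71 of the higher genes (0.554% of all tested) and 30 of the lower genes (0.234%). The median log2 ratio over all tested genes was 0.02, and 47.8% of them lay below 0. As a measure of how far 2 control libraries differ, the scrambled library of the Pnuts set was set against the scrambled library of the Set1a and Set1b set, a comparison added after seeing the data and made across separately normalised tables. There 515 of 12686 genes (4.06%) were 2-fold different, and the median absolute log2 ratio was 0.23, against 0.28 for Pnuts sh over its own control. Of the genes 2-fold higher with Pnuts sh, 211 of 433 (48.7%) were also 2-fold higher than in that other scrambled library, and of the lower genes 137 of 322 (42.5%) were also 2-fold lower. Results against both controls are therefore given below for many genes and lists, but not for every gene. A gene without such a statement may or may not pass against both.

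Genes of the integrated stress response were higher in the library labelled Pnuts sh. This response is set off by phosphorylation of eIF2alpha, which favours translation of the transcription factor ATF4, and ATF4 in turn activates genes for amino acid synthesis and transport together with regulators such as CHOP. ATF4 acts with C/EBP partners at a short composite element, written here as TGATGNAA and searched on both strands from 250 bases before to 50 bases after each RefSeq start site. Of the 8 list members that were 2-fold higher, 5 held the element (62.5%), against 1 of 16 other tested members with a window, 2.92% of 8152 tested genes with a window and 3.97% of all 32851 windows. Of the 247 named genes of the whole table that were 2-fold higher, 188 had a window and 24 of these held the element (12.8%); since under 80% had a window, no comparison was drawn with that share. Windows came from RefSeq (GRCm38.p6) and were found for 24 of the 25 tested members. The stretches that hold it are shown, 5′ to 3′ on the strand of the gene, because these genes were higher together; capitals mark the matching letters. They are chr6:7693195-7693262 (minus strand) for Asns, chr2:119351019-119351086 (plus) for Chac1, chr7:126625543-126625610 (minus) for Nupr1, chr3:50443623-50443709 (minus) for Slc7a11 and chr2:152344011-152344076 (minus) for Trib3.
Asns: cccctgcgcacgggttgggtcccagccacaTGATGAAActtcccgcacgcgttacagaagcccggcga
Chac1: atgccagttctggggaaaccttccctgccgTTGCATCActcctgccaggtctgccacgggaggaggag
Nupr1: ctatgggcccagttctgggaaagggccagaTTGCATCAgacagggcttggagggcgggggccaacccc
Slc7a11: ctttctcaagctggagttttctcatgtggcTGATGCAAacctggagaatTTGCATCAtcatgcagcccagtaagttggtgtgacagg
Trib3: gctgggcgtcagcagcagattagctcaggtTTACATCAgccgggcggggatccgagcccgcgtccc
Slc7a11 holds 2 matches, 1 on each strand. The windows of Ddit3, Ddit4 and Phgdh, which were also 2-fold higher, do not hold these letters. A match is a string of letters in a window and was not tested for binding.

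Transport and synthesis genes were part of this group. Slc7a11, the cystine transporter, was at 14.3 FPKM (bounds 6.74 to 21.8) with Pnuts sh and 1.36 FPKM (bounds 0.503 to 2.21) with scrambled, a log2 ratio of 2.70. Asns, which makes asparagine, was at 62.9 FPKM (bounds 32.5 to 93.4) with Pnuts sh and 17.8 FPKM (bounds 9.44 to 26.2) with scrambled, a ratio of 1.76. Phgdh, the first enzyme of serine synthesis, was at 13.8 FPKM with Pnuts sh and 2.17 FPKM with scrambled (2.23). For Slc7a11, Asns and Phgdh the bounds of the libraries did not overlap. Psat1 and Mthfd2, of serine and one-carbon metabolism, had ratios of 0.83 and 0.73 and stayed under 2-fold.

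Regulators and stress effectors showed the same direction. Trib3, a pseudokinase induced by ATF4 and CHOP, was at 35.7 FPKM (bounds 18 to 53.3) with Pnuts sh and 5.73 FPKM (bounds 2.44 to 9.08) with scrambled, a log2 ratio of 2.45. Chac1, which degrades glutathione, was at 41.7 FPKM (bounds 23.2 to 59.9) with Pnuts sh and 8.79 FPKM (bounds 4.51 to 13.1) with scrambled (2.12). Nupr1, a small stress-induced nuclear protein, was at 34.5 FPKM with Pnuts sh and 9.99 FPKM with scrambled (1.69). Ddit3, which encodes CHOP, was at 112 FPKM with Pnuts sh and 49.1 FPKM with scrambled (1.17), with overlapping bounds. Ddit4, an inhibitor of mTORC1, was at 5.43 FPKM with Pnuts sh and 1.79 FPKM with scrambled (1.21). Atf5, a transcription factor of the same response that was not on the list, was at 37.3 FPKM with Pnuts sh and 5.96 FPKM with scrambled (2.46), with overlapping bounds and a locus shared with other genes. The chaperones and folding factors of the endoplasmic reticulum Hspa5, Hsp90b1, Pdia4, Sdf2l1, Calr and Creld2 were the only 6 tested members below 0, none of them 2-fold lower, with Creld2 the lowest at -0.79.

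Of the 25 tested members of the stress list, 8 were 2-fold higher and 0 were 2-fold lower with Pnuts sh, with a median log2 ratio of 0.53 beside 0.02 over all genes and 3.38% called higher. In the 45 min LPS pair 10 of 26 members were 2-fold higher and the median was 0.73, where 6.4% of all tested genes were called higher. Set against the scrambled library of the Set1a and Set1b set, the untreated Pnuts sh library had a list median of 0.60, and 7 of the 8 genes were again 2-fold higher, the exception being Ddit3 at 0.89. Between the 2 scrambled libraries 0 of 25 members differed 2-fold and the list median was -0.0046. In untreated cells with other hairpins the list median was -0.17 for Set1a and Set1b, -0.34 for Wdr82 in the stranded set and -0.36 for Wdr82 in the unstranded set, against their own controls. Trib3 had ratios of -0.40 with the Set1a and Set1b hairpins and -0.80 with the Wdr82 hairpin in the stranded set, and Slc7a11 had 1.54 and 1.80 in the same order. Whether these values differ between hairpins was not tested.

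**Figure D1:**
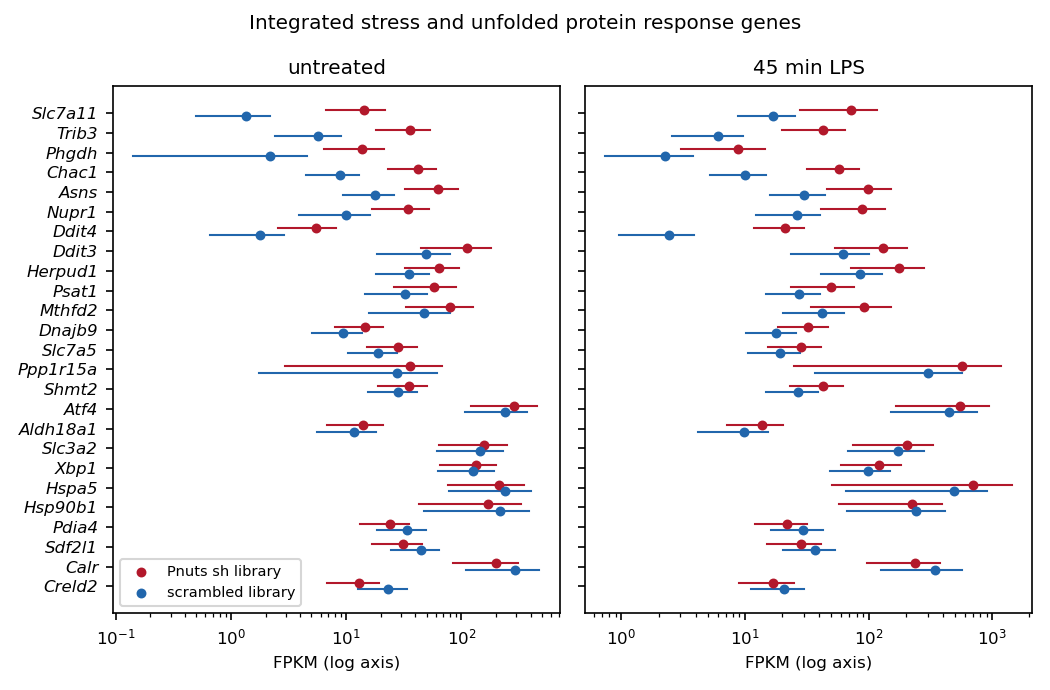
FPKM (log axis) of the 25 tested genes of the stress response list, untreated on the left and after 45 min of LPS on the right; points are single libraries and lines the deposited bounds, with values under 0.05 drawn at 0.05. Slc7a11, Trib3, Phgdh, Chac1 and Asns stand higher in the Pnuts sh library in both panels, while the chaperone genes at the bottom do not.

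The genes with the highest ratios outside the stress response included secreted and surface proteins of macrophages. Cd5l, a scavenger receptor family protein secreted by macrophages, was at 22.4 FPKM (bounds 12.7 to 32.0) with Pnuts sh and 0.725 FPKM (bounds 0.181 to 1.27) with scrambled, a log2 ratio of 3.76 and the highest of the table by the naming rule. Mmp9, the gelatinase, was at 14.3 FPKM (bounds 7.57 to 21.0) with Pnuts sh and 0.560 FPKM (upper bound 1.63) with scrambled (3.29). Hal, the enzyme that deaminates histidine, was at 112 FPKM (bounds 29.4 to 196) with Pnuts sh and 16.4 FPKM (bounds 6.71 to 26.1) with scrambled (2.70). For these 3 genes the bounds did not overlap. Cd97, an adhesion receptor, was at 45.0 FPKM with Pnuts sh and 6.93 FPKM with scrambled (2.53), with bounds that just overlapped. Ccl6, a chemokine, was at 322 FPKM (bounds 147 to 496) with Pnuts sh and 43.6 FPKM (bounds 23.8 to 63.3) with scrambled (2.86), and at 98.7 FPKM in the other scrambled library. Bbs10, a chaperonin-like gene mutated in Bardet-Biedl syndrome, was at 32.8 FPKM (bounds 18.6 to 47.1) with Pnuts sh and 5.37 FPKM (bounds 2.81 to 7.90) with scrambled (2.41).

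The same genes were high after LPS. In the 45 min LPS pair Cd5l was at 26 FPKM with Pnuts sh and 0.720 FPKM with scrambled, Mmp9 at 16.8 FPKM with Pnuts sh and 0.651 FPKM with scrambled, and Hal at 151 FPKM with Pnuts sh and 19.9 FPKM with scrambled. All 15 genes with the highest ratios in untreated cells were also 2-fold higher in the LPS pair, which did not choose them, with log2 ratios of 1.04 to 3.97 and a median of 2.53. In that pair 6.4% of all tested genes were called higher. Bounds were apart in the untreated pair for 10 of the 15, and 14 of the 15 were also 2-fold higher than in the other scrambled library, the exception being Ednrb, an endothelin receptor. Ednrb was at 15.3 FPKM with Pnuts sh, 1.3 FPKM with its own scrambled control and 7.52 FPKM with the other scrambled control, so the controls differed by more than 2-fold. Bcl2a1d belongs to a family of near-identical genes in 1 locus of 15 genes, and its values (14.0 FPKM with Pnuts sh and 0.958 FPKM with scrambled) are uncertain for that reason.

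**Figure D2:**
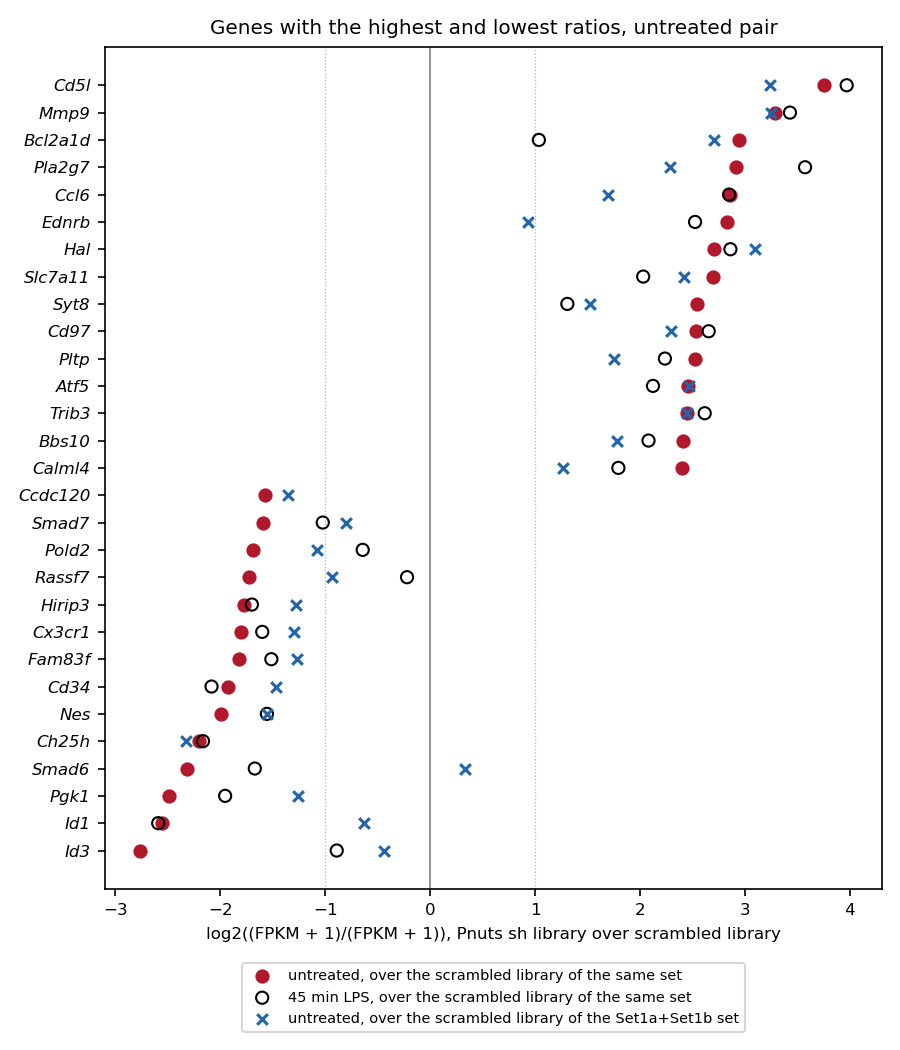
Log2 ratios of the 15 highest genes and 14 of the lowest genes of the untreated pair (filled circles), with the 45 min LPS pair (open circles) and the untreated Pnuts sh library over the scrambled library of the Set1a and Set1b set (crosses); dotted lines mark 2-fold. The 15 higher genes keep their direction in the LPS pair, while Id3, Id1 and Smad6 stand between -0.63 and 0.33 against the other control.

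Lipid genes were higher against one control and less so against the other. Pla2g7, which hydrolyses platelet-activating factor, was at 32.9 FPKM (bounds 17.3 to 48.5) with Pnuts sh and 3.50 FPKM (bounds 1.02 to 6.05) with scrambled, a log2 ratio of 2.91. Pltp, a phospholipid transfer protein and known target of the sterol receptor LXR, was at 41.7 FPKM with Pnuts sh and 6.42 FPKM with scrambled (2.52). Its bounds overlapped and reached 0, at 0 to 146 with Pnuts sh and 0 to 34.6 with scrambled, in a locus of 3 genes. Abca1, the LXR-induced cholesterol exporter, was at 12.2 FPKM (bounds 5.91 to 18.5) with Pnuts sh and 3.03 FPKM (bounds 1.02 to 5.42) with scrambled (1.71). In the other scrambled library Abca1 was at 14.5 FPKM, above the library labelled Pnuts sh. Of 13 tested members of the LXR and lipid handling list 6 were 2-fold higher and 0 lower, with a median of 0.99 in untreated cells and 0.64 in the LPS pair. Over all genes tested in untreated cells, 3.38% were called higher and 2.51% lower. Against the other scrambled library the median was 0.10, and 4 of the 6 were again 2-fold higher, among them Pla2g7, Pltp and Fabp5. The median between the scrambled libraries was -0.53. With the Wdr82 hairpin (stranded set) the list median was 1.03 and with the Set1a and Set1b hairpins 0.48. In the cholesterol and lipid synthesis list 2 of 29 genes were 2-fold higher, beside the same 3.38% of all genes. They were Scd2 (26.1 FPKM with Pnuts sh and 7.02 FPKM with scrambled) and Acaca, and neither was higher than in the other scrambled library.

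Targets of bone morphogenetic protein signalling were among the lowest ratios, and Id1, Id3 and Smad6 also differed over 2-fold between the controls. Id1 and Id3 encode inhibitors of helix-loop-helix transcription factors, and Smad6 and Smad7 encode the inhibitory SMADs that damp the pathway. Id3 was at 15.9 FPKM (bounds 5.99 to 25.7) with Pnuts sh and 113 FPKM (bounds 59.7 to 167) with scrambled, a log2 ratio of -2.76. Id1 was at 29.4 FPKM (bounds 15.4 to 43.5) with Pnuts sh and 178 FPKM (bounds 89.6 to 267) with scrambled (-2.56). Smad6 was at 2.11 FPKM with Pnuts sh and 14.5 FPKM with scrambled (-2.31), and Smad7 at 8.21 FPKM with Pnuts sh and 26.8 FPKM with scrambled (-1.59). The bounds of all 4 genes were apart. In the other scrambled library Id3 was at 21.9 FPKM, Id1 at 46.1, Smad6 at 1.47 and Smad7 at 15.1, and 0 of the 5 list members that were 2-fold lower (with Id2 as the fifth) were 2-fold lower against it. After 45 min of LPS Id1 was at 8.45 FPKM with Pnuts sh and 56.0 FPKM with scrambled (-2.59), and Id3 at 134 FPKM with Pnuts sh and 250 FPKM with scrambled (-0.89). The receptor-activated SMAD genes Smad1 (0.20) and Smad5 (-0.10), the common mediator Smad4 (0.05) and the receptor gene Bmpr2 (0.23) were near 0. The ligand gene Bmp2 was low, at 1.94 FPKM with Pnuts sh and 0.0925 FPKM with scrambled. The list median was -0.10 over 13 genes, with 5 called lower and 1 higher, beside 2.51% and 3.38% of all genes tested.

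Other genes with low ratios held against both controls. Ch25h, which makes 25-hydroxycholesterol, was at 17.3 FPKM (bounds 9.47 to 25) with Pnuts sh, against 83.1 FPKM (bounds 46.5 to 120) with its own scrambled control and 90.8 FPKM with the other. After LPS it was at 25.3 FPKM with Pnuts sh and 117 FPKM with scrambled. Cx3cr1, the fractalkine receptor, was at 9.07 FPKM (bounds 5.18 to 13.0) with Pnuts sh, against 34.2 FPKM (bounds 19.0 to 49.3) and 23.8 FPKM in the same order of controls. Pgk1, a glycolytic enzyme, was at 40.7 FPKM (bounds 23.0 to 58.5) with Pnuts sh, against 233 FPKM (bounds 97.4 to 369) and 98.9 FPKM, so that its log2 ratio was -2.49 against its own control and -1.26 against the other. Apart from Pgk1, no glycolysis gene was 2-fold lower, and the regulator Pfkfb3 was 2-fold higher (76.7 FPKM with Pnuts sh and 37.5 FPKM with scrambled), though at 0.46 against the other control. Of the 14 named lowest genes 9 were 2-fold lower against both controls, 13 could be tested in the LPS pair, and 10 of these were 2-fold lower there, where 3.86% of all tested genes were called lower.

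Genes of the cell cycle were lower as a group. Of the 36 tested members all lay below 0 in the untreated pair, with log2 ratios of -1.37 to -0.44, where 47.8% of all genes lay below 0. The median was -0.90, and 9 members were 2-fold lower and 0 higher, beside 2.51% and 3.38% of all genes tested. Cdc20, an activator of the anaphase-promoting complex, was at 13.2 FPKM with Pnuts sh and 35.9 FPKM with scrambled (-1.37). Mcm5, a subunit of the replicative helicase, was at 24.2 FPKM with Pnuts sh and 58.1 FPKM with scrambled (-1.23), and the mitotic kinase Plk1 at 10.7 FPKM with Pnuts sh and 25.8 FPKM with scrambled (-1.20). Tyms, which makes thymidylate, was at 21.1 FPKM with Pnuts sh and 46.7 FPKM with scrambled (-1.11). The bounds of Cdc20, Mcm5, Plk1 and Tyms overlapped between the libraries. Ratios were small per gene and alike across genes, and in bulk RNA fewer cycling cells and less RNA per cell cannot be told apart.

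All 36 members were also below 0 in the 45 min LPS pair, with a median of -0.90, and against the other scrambled library, with a median of -0.76 and 2 members 2-fold lower. Between the scrambled libraries the median was 0.12 and no member differed 2-fold. The medians with other hairpins in untreated cells were -0.29 for Set1a and Set1b, -0.53 for Wdr82 in the stranded set and -0.56 for Wdr82 in the unstranded set. The distance of the Pnuts hairpin from them was not tested.

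Replication-dependent histone genes, which are made in S phase, were also lower with Pnuts sh. Their median was -0.85 over 61 tested genes, with 17 genes 2-fold lower and 57 below 0. Over all genes tested, 2.51% were called lower and 47.8% lay below 0. Hist1h2bk was at 39.1 FPKM with Pnuts sh and 105 FPKM with scrambled (-1.40), and Hist1h1a, a linker histone, at 74.9 FPKM with Pnuts sh and 178 FPKM with scrambled (-1.24). The scrambled libraries differed here as well, the one of the Pnuts set having a median of -0.64 over the other and all 61 genes below 0. Against that other scrambled library, which was the higher of the controls, the Pnuts sh median was -1.48. There 60 of the 61 genes lay below 0 and all 17 were again 2-fold lower. Since all 61 genes were lower in the Pnuts set's scrambled library than in the other, the 17 could only pass again. This outcome was fixed in advance and is no second support. Each over its own control, medians were -0.99 for the Set1a and Set1b hairpins and -0.98 (stranded) and -0.89 (unstranded) for the Wdr82 hairpin. In the Pnuts LPS pair the median was -1.59. The genes have near-identical copies, so single values are uncertain.

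**Figure D3:**
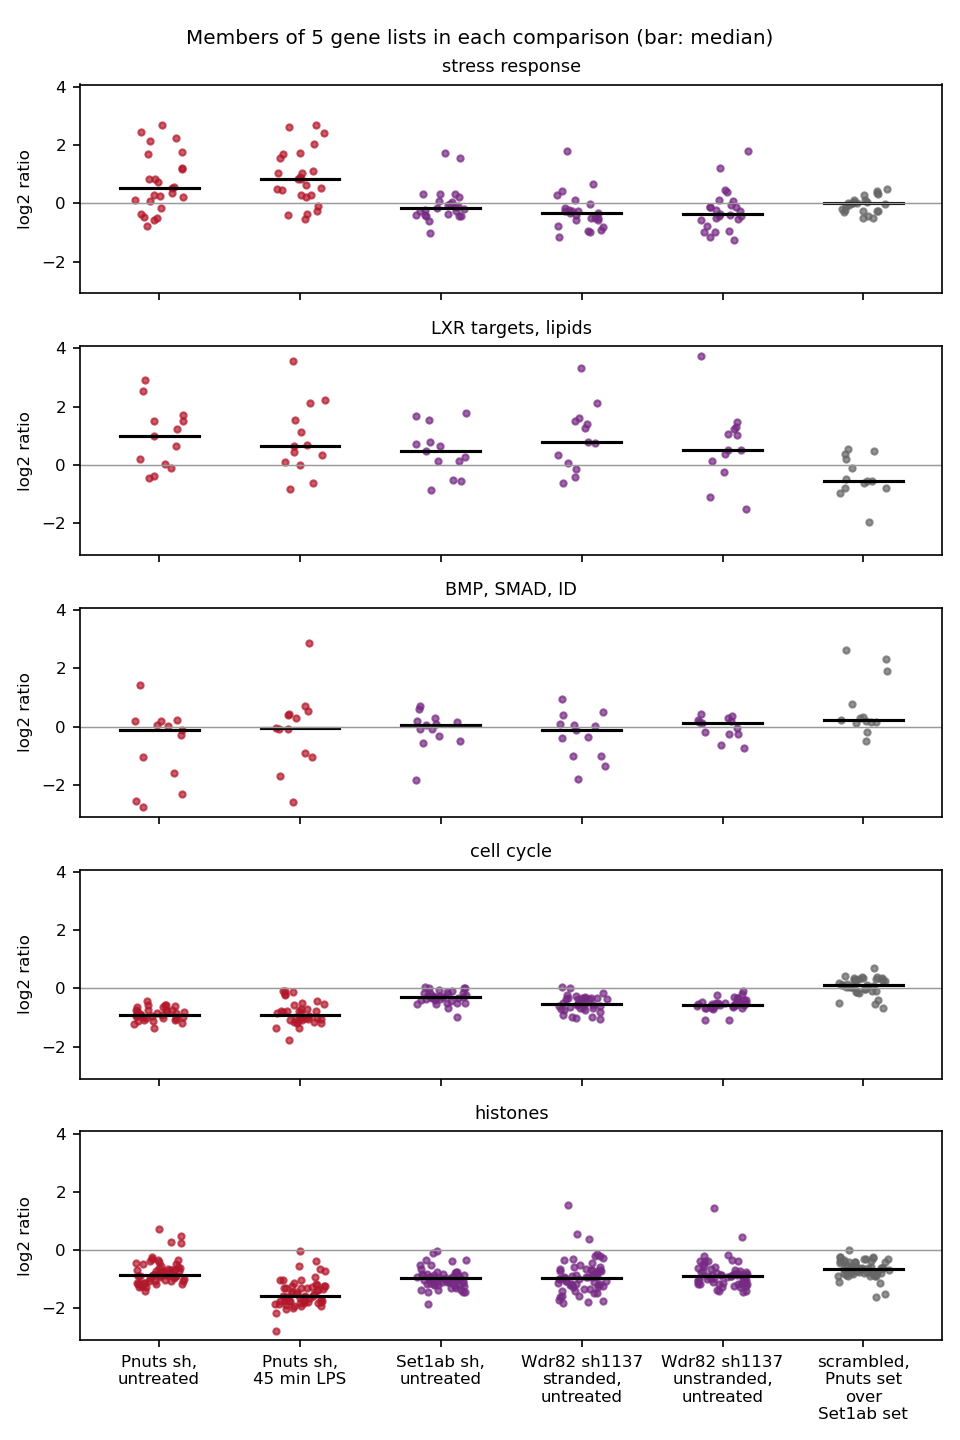
Log2 ratios of the members of 5 gene lists that were tested in the untreated Pnuts pair, for each hairpin over its own control and, at the right, for the scrambled library of the Pnuts set over that of the Set1a and Set1b set; points are genes and bars medians. Stress response genes reach ratios above 2 with the Pnuts hairpin, cell cycle genes lie below 0 with it, and the histone medians lie below 0 in every column, the comparison of scrambled libraries included.

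Genes of the innate response were mostly somewhat lower in untreated cells. Interferon-stimulated genes had a median of -0.36 over 45 tested genes, with 37 below 0, 5 at least 2-fold lower and 0 higher. Over all genes tested, 47.8% lay below 0, 2.51% were called lower and 3.38% higher. Oas3, which makes the activator of RNase L, was at 16.1 FPKM with Pnuts sh and 44.4 FPKM with scrambled (-1.41), and the transcription factor Irf7 at 20.7 FPKM with Pnuts sh and 44.7 FPKM with scrambled (-1.08). In the LPS pair the median was -0.25. Against the other scrambled library it was -0.39, with 42 of the 45 genes below 0 and 3 of the 5 again 2-fold lower.

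Inflammatory LPS genes had a median of -0.21 over 41 genes, with 3 genes 2-fold lower and 1 higher, beside 2.51% and 3.38% of all genes tested. Tnf, the cytokine, was at 80.7 FPKM (bounds 42.8 to 119) with Pnuts sh and 203 FPKM (bounds 93.0 to 313) with scrambled (-1.32), and the chemokine Cxcl16 at 12.5 FPKM with Pnuts sh and 31.0 FPKM with scrambled (-1.25). Tnfaip2 was at 108 FPKM with Pnuts sh and 46.6 FPKM with scrambled (1.20). All 4 of the 2-fold differences, Ccl5 among them, were also 2-fold against the other control. Between the scrambled libraries the list median was of like size, -0.23 for the Pnuts set over the other. There 29 of the 41 genes lay below 0, with 4 genes 2-fold lower and 0 higher. Pnuts sh over the other control had a median of -0.48, with 32 genes below 0. After LPS the list median was 0.41, with Tnf at 5488 FPKM with Pnuts sh and 5800.0 FPKM with scrambled (-0.08). Immediate early genes had a median of -0.16 over 27 genes, with 19 below 0, 2 called higher and 1 lower. In the LPS pair their median was 0.55, with 23 of 29 above 0 and 6 called higher, beside 6.4% of all tested genes. Klf4, a transcription factor, had the highest ratio of the list in untreated cells. It was at 33.2 FPKM (bounds 13.7 to 52.9) with Pnuts sh and 5.92 FPKM (bounds 1.46 to 10.4) with scrambled (2.31). Klf4 was also higher in the LPS pair (2.04) and against the other scrambled library (1.99).

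Genes of the machinery that ends or releases transcription, set apart from the complex itself, were read beside the 5.89% of all genes called 2-fold different. Lists of this size give few calls at that share, so the counts alone say little about these genes. Of 25 genes for termination and 3′ end processing 0 were 2-fold different (median -0.03), with Cstf2 at -0.76 and Pcf11 at 0.59 as the most distant. Of 31 genes for early termination, the exosome and Integrator 0 were 2-fold different (median -0.24). Of 30 genes for pausing and elongation 1 was 2-fold higher, Rpap2 (1.05), and it was at 0.26 against the other control.

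Because the complex is known for ending transcription, the share of low genes (mean under 5 FPKM) called higher was read by the gap to the nearest active gene (at least 20 FPKM in scrambled). Only low genes alone in their locus were used, so low genes that share a locus with a neighbour are not covered. The share was 4.59% of 305 genes under 5 kb away, 5.49% of 237 genes at 5 to 20 kb, 5.16% of 446 genes at 20 to 100 kb and 6.83% of 747 genes at 100 kb or more, beside 5.82% of the 1735 low genes used. The exact binomial 95% intervals, which cover counting error over genes only, were 2.53 to 7.58% for the nearest class and 5.13 to 8.88% for the farthest. The share was not higher in the nearest class than in the farthest. Among genes within 20 kb beyond the 3′ end of an active gene on its strand, 7 of 89 (7.87%, interval 3.22 to 15.5%) were called higher, against 1 of 71 on the opposite strand (interval 0.0357 to 7.60%), so that the intervals overlapped. For the 267 low genes within 20 kb whose strand relation was unknown, 16 (5.99%) were called higher. The tables give values for annotated genes, so reads between genes were not analysed here.

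Markers of other cell types were mostly low, with a few 2-fold differences. Summed over 16 neutrophil genes the level was 40.5 FPKM with Pnuts sh and 37.5 FPKM with scrambled, and without Mmp9, which macrophages also make, 26.2 FPKM with Pnuts sh and 37.0 FPKM with scrambled. Of the 11 tested, Mmp9 was 2-fold higher and 3 were 2-fold lower (median -0.57), with 8 below 0. Over all genes tested, 3.38% were called higher and 2.51% lower. Mmp8 was above 0, at 7.80 FPKM with Pnuts sh and 5.62 FPKM with scrambled. So was Csf3r, at 5.13 FPKM with Pnuts sh and 2.68 FPKM with scrambled, and both were again higher with Pnuts sh after LPS. Against the other scrambled library 0 of the 3 were 2-fold lower. Between the scrambled libraries 3 of the 11 were 2-fold higher in the Pnuts set and 1 was 2-fold lower. In the LPS pair 5 of 9 were 2-fold lower (median -1.0), where 3.86% of all tested genes were called lower. There S100a8, a calcium-binding protein of myeloid cells, was at 1.67 FPKM with Pnuts sh and 10.8 FPKM with scrambled. The defining Ly6g was at 0 in both libraries and Elane at 0 FPKM with Pnuts sh and 0.689 FPKM with scrambled. Of 16 stromal and endothelial genes, summing to 36.2 FPKM with Pnuts sh and 36.7 FPKM with scrambled, 8 were tested, with a median of -0.71 in the untreated and 0.13 in the LPS pair. Col1a1 was at 1.90 FPKM with Pnuts sh and 5.10 FPKM with scrambled, Vwf at 20.9 FPKM with Pnuts sh and 7.16 FPKM with scrambled, and Lum at 0 in both. Vwf, the 1 member 2-fold higher, was again 2-fold higher against the other scrambled library. Of the 2 members 2-fold lower, Col1a1 among them, 0 were 2-fold lower against it. The part of these cells in the lower Id1, Id3 and Smad6 values was not tested. No erythroid or mast cell marker reached 1 FPKM, and 16 of 18 lymphocyte markers stayed under 1 FPKM in both libraries, Cd3e and Ms4a1 being at 0. The exceptions were Il7r, an interleukin receptor chain, at 52.2 FPKM with Pnuts sh and 56.4 FPKM with scrambled, and Ighm, an immunoglobulin heavy chain, at 13.2 FPKM with Pnuts sh and 8.33 FPKM with scrambled. Of MHC class II and dendritic cell genes 0 of 8 were 2-fold different (median 0.03), beside 5.89% of all genes tested. All 37 mitochondrially encoded genes were listed at 0 in both libraries.

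Macrophage markers had a median of 0.00 over 24 genes, with 3 genes 2-fold higher and Cx3cr1 2-fold lower. Over all genes tested, 3.38% were called higher and 2.51% lower. Lyz2, lysozyme, was at 6042 FPKM with Pnuts sh and 2017 FPKM with scrambled (1.58), and Gpnmb, a lysosomal glycoprotein, at 157 FPKM with Pnuts sh and 60.7 FPKM with scrambled (1.36). Both were also 2-fold higher than in the other scrambled library. Mrc1, the mannose receptor, was at 52.4 FPKM (bounds 23.7 to 81.1) with Pnuts sh and 13.8 FPKM (bounds 7.28 to 20.3) with its own control, but at 93.1 FPKM in the other control. Ribosomal protein genes had a median of -0.13 with 1 of 78 called lower, NRF2 antioxidant genes -0.03 with 1 of 16 called higher, and heat shock genes 0.03 with 1 of 17 called lower. Single calls in lists of this size were near the shares over all genes. Of 21 tested p53 targets 3 were 2-fold higher, Gadd45a (37.9 FPKM with Pnuts sh and 12 FPKM with scrambled), Sesn2 (31.1 FPKM with Pnuts sh and 10.8 FPKM with scrambled) and Trp53inp1, and the median was 0.09. Small RNA host transcripts had a median of -0.37 with 0 of 13 called.

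**Figure D4:**
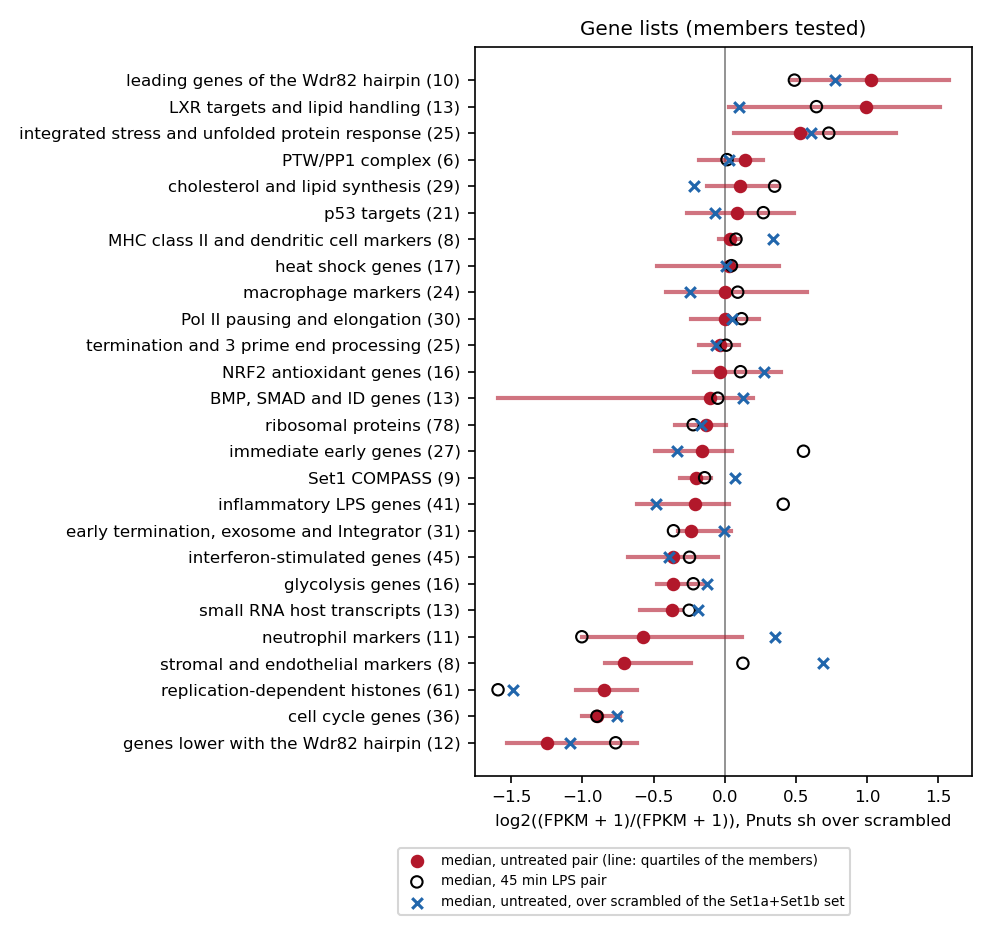
Median log2 ratio, Pnuts sh over scrambled, of each gene list with at least 5 tested members (number in brackets), in the untreated pair with the quartiles of its members (filled circles and lines), in the 45 min LPS pair (open circles) and over the scrambled library of the Set1a and Set1b set (crosses). The stress response (0.53) and cell cycle (-0.90) medians keep their side in all 3, whereas the LXR list drops to 0.10 and the stromal list turns to 0.69 with the other control.

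The hairpin was tested across both Pnuts pairs with limma, with LPS time as a block, so that the pairs stand in for replicates and 1 residual degree of freedom is left. That degree of freedom holds the difference of the hairpin ratio between untreated and LPS cells. A gene whose ratio changes with LPS is therefore less readily called. Of 12602 genes 25 were higher (0.198%) and 11 lower (0.0873%) at a Benjamini-Hochberg adjusted p under 0.05, and all of them were at least 2-fold different. At an unadjusted p under 0.05 there were 3570 genes. Named genes made up 22 of the higher and 4 of the lower calls, and the other 10 were small RNA, clone or predicted genes. Of the 15 highest genes of the untreated pair 11 rose in this test, and of the 14 named lowest 4 fell. These are no independent support, since the untreated pair enters the test.

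Cd5l had a mean log2 ratio of 3.86 ± 0.16 (standard error from the fit over 2 pairs) and a limma adjusted p of 0.0323 (0.0284 to 0.450 over the 6 alternative settings). Trib3 had 2.53 ± 0.12 and a limma adjusted p of 0.0371 (0.0365 to 0.450), and Chac1 2.27 ± 0.13 and 0.0477 (0.0397 to 0.450). Of the stress genes Asns and Nupr1 passed as well, while Slc7a11 missed at a limma adjusted p of 0.0626. Id1 had -2.57 ± 0.11 and a limma adjusted p of 0.0323 (0.0283 to 0.450), and Ch25h -2.18 ± 0.10 and 0.0371 (0.0365 to 0.450). Ppp1r10 had 0.69 ± 0.11 and a limma adjusted p of 0.0737, so its higher level was not called. With each library centred on its median 7 genes rose and 8 fell, and without the filter on low values no gene passed in either direction (3184 genes at an unadjusted p under 0.05).

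Calls of the untreated Pnuts pair overlapped those of the untreated Wdr82 pair in the stranded set, which has its own control. Among 12371 genes tested in both, 138 were 2-fold higher in both, which is 36.6% of 377 genes higher with Pnuts sh and 22.9% of 602 genes higher with the Wdr82 hairpin, beside 4.87% of these 12371 genes higher with the Wdr82 hairpin (6.8% of all tested in that pair). Lower in both were 64 genes, 23.6% of 271 and 21.3% of 300, beside 2.43% of the 12371 genes (3.07% of all tested in that pair). In the opposite direction were 19 genes higher with Pnuts sh (5.04% of 377, beside 2.43%) and 25 lower with it (9.23% of 271, beside 4.87%). In the unstranded Wdr82 set, 99 genes were higher in both, 27.0% of 366 higher with Pnuts sh, beside 3.22% of genes tested in both. Lower in both were 48 genes, 17.9% of 268, beside 1.77%. Opposite there were 19 genes higher with Pnuts sh (5.19%, beside 1.77%) and 17 lower with it (6.34%, beside 3.22%). For the Set1a and Set1b hairpins, 69 genes were higher in both, 19.0% of 363 and 27.2% of 254, beside 2.05% of the genes tested in both and 2.53% of all tested in that pair. Lower in both were 42 genes, 15.2% of 277 and 26.8% of 157, beside 1.27% of the genes tested in both and 1.74% of all tested in that pair. In the opposite direction were 18 genes higher with Pnuts sh (4.96% of 363, beside 1.27%) and 33 lower with it (11.9% of 277, beside 2.05%). For the second Pnuts pair, after LPS, 224 genes were higher in both, 60.5% of 370 and 33.0% of 678, beside 5.47% of the genes tested in both, and 123 were lower in both, 45.7% of 269 and 29.1% of 423, beside 3.41%. Of a list of genes that lead with the Wdr82 hairpin 5 of 10 tested were 2-fold higher with Pnuts sh (median 1.03), and of a list of genes lower with it 8 of 12 were 2-fold lower (median -1.25). Over all genes tested, 3.38% were higher and 2.51% lower with Pnuts sh. Both lists were taken from earlier results of this series and are no independent evidence of a direction.

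Shared and unshared genes stood side by side. Pla2g7 had log2 ratios of 2.91 with Pnuts sh, 3.31 with the Wdr82 hairpin in the stranded set and 1.70 with the Set1a and Set1b hairpins. Ch25h had -2.20, -2.56 and -0.64 in the same order, and Cx3cr1 -1.80, -2.14 and -1.09. Cd5l had 3.76, 1.38 and 0.62, and Hal 2.70, 1.05 and 0.92. Trib3 had 2.45, -0.80 and -0.40, and Chac1 2.12, -0.91 and -0.24. In the unstranded Wdr82 set the ratios were 3.75 for Pla2g7, -1.81 for Ch25h, -1.61 for Cx3cr1 and 0.88 for Cd5l. They were 0.74 for Hal, -0.44 for Trib3 and -0.53 for Chac1 in that set. The differences between hairpins were not tested.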

How the data were processed

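RNA of mouse macrophages was labelled with 4sU, and the authors deposited 1 table per hairpin set with an FPKM, a lower and an upper bound in FPKM and a status for each gene and library, per the file headers. Per the submitters' processing notes, TopHat 1.3.1, Cufflinks 2.1.1, Cuffdiff 2.1.1 and build mm9 were used; the sources used here do not give the annotation, the library scaling or the level of the bounds. A table holds 36806 entries with 33411 symbols, and of entries that share a symbol the one of highest mean FPKM was used. From 4 tables, ratios were computed within a table as log2((FPKM + 1)/(FPKM + 1)), except those over the scrambled library of the Set1a and Set1b set. A gene was tested at 1 FPKM or more in either library with status OK in both, and called at 2-fold. Sources do not tell separate cultures apart. The p-values and standard errors rest on how alike the hairpin ratios of the untreated and LPS pairs were, and measure no spread between replicate cultures.

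Limma 3.58.1 (R 4.3.3) was fitted to log2(FPKM + 1) of genes with a mean of at least 1 FPKM, with trend, and other steps ran in Python 3.11.15 (pandas 2.3.3, scipy 1.17.1). Procedures were run on simulated data with less noise than the real spread of a gene log2 ratio between the 2 pairs (pooled standard deviation 0.58). The simulated ratios did not change with LPS, so that run does not show how reliable the calls are here. Genes were named as all members of the PTW/PP1 complex, the 15 highest and 15 lowest ratios at 5 FPKM or more in the higher library without small RNA, pseudogene, clone or predicted names, and up to 4 members per list at 5 FPKM or more with the largest ratios; Csf1r, further list members shown to describe their list, and genes set beside other hairpins were chosen after their values were seen. Members and the 30 gene lists were chosen with earlier results of these data known; 2 lists, of genes leading and lower with the Wdr82 hairpin, were taken from such results. Alternatives were other pseudocounts, filters, centring and thresholds, and, added after seeing the data, the second scrambled library. The DRB and polyA tables were not used here. Status was not OK for 256 to 263 entries per library. Of the 15 lowest ratios 1 gene is not reported here, and the counts over the named lowest genes leave it out.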

Additional observations from a re-analysis of the deposited data

How the results depend on the processing

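The counts of 433 higher and 322 lower genes moved with the settings. They were 741 and 525 with a pseudocount of 0.1 FPKM, 150 and 141 with 5 FPKM, 247 and 157 among named genes, 145 and 97 at 3-fold, and 211 and 137 against both scrambled libraries; 287 genes were higher with at least 5 FPKM in either library. The limma counts of 25 higher and 11 lower were 0 and 0 without a filter (3184 genes at an unadjusted p under 0.05), 1 and 2 without trend, 2 and 4 without the time block, and 7 higher with centred libraries, so they depend on each of these settings. With the other scrambled library as control, list medians were 0.075 for SET1 complex genes, -0.48 for inflammatory, 0.36 for neutrophil, 0.34 for MHC class II, 0.69 for stromal, -0.21 for cholesterol synthesis, 0.10 for LXR, 0.28 for NRF2, 0.77 for genes leading with the Wdr82 hairpin (1.03 with its own control) and -1.48 for histone genes. With at least 5 FPKM, medians were 0.41 for neutrophil, -0.66 for BMP and 1.33 for the genes leading with the Wdr82 hairpin. With a pseudocount of 0.1 FPKM they were -0.85 for neutrophil, 1.48 for genes leading and -1.57 for genes lower with the Wdr82 hairpin (-1.25 with 1 FPKM). With that pseudocount the shares of low genes called higher were 12.8%, 15.2%, 13.0% and 15.0% from the nearest to the farthest class. The cause of each was not tested. The other 101 main values and 229 values of named genes moved by less than the spread between the 2 pairs or 1.5 times a count, and 9 values of named genes moved further. No 2-fold difference of a named gene changed sign with a pseudocount of 0.1 FPKM or with centring, the only settings tried gene by gene. The pseudocount cannot change a sign and centring moved each ratio by 0.02, so this outcome was fixed in advance. Against the other scrambled library some 2-fold differences did change sign. Abca1 went from 1.71 to -0.23, Scd2 from 1.76 to -0.60, Mrc1 from 1.85 to -0.82 and Smad6 from -2.31 to 0.33. Of the list medians 12 values changed side of 0, among them, beside those above, 0.13 for BMP, -0.07 for p53 targets and -0.24 for macrophage markers with the other scrambled library and -0.08 for heat shock genes with at least 5 FPKM; H2-DMb1 went to -0.02 with centring. Depth is unknown, so low genes carry no counting error. The limma fit pairs the libraries by LPS time, with 1 residual degree of freedom, and 2 and 4 genes passed without this block.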
